A study of Homo sapiens with 12 samples.

Results

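The genes described here encode the chaperones, disulfide-forming enzymes, degradation factors and stress sensors of the endoplasmic reticulum (ER), and their mRNA was measured in cultured U937 cells, which are a human myeloid cell line. The list holds 40 gene symbols and was drawn up by gene name. No measured value enters its rule, but it was chosen with earlier results of these data known. A gene was measured where a probe set was listed with its symbol alone, and where several were, the one with the highest average level over all 12 arrays was taken. This gave 37 of the 40 listed genes, out of 19775 genes in all. They fall into 20 folding genes, 8 degradation genes, 5 sensors with their effectors, and 4 genes of entry into the ER and export from it. PDIA5, TXNDC5 and SYVN1 had no probe set of their own symbol and were not analysed here.

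The cells were exposed to the nitric oxide prodrug JS-K, which gives off the gas once glutathione has reacted with it, for 90 min, 4 h or 24 h, or to its vehicle DMSO. Each of the 4 groups had 3 arrays from RNA of separate biological replicates, per the labels. The dose of JS-K, the length of the DMSO exposure and any control at each time are not stated in the labels used here, so time in culture and exposure to JS-K cannot be told apart. All samples come from 1 cell line. Levels are the authors' log2 values, on which a difference of 1 is a factor of 2. A gene was called higher or lower at an adjusted p under 0.05 (limma across all genes, Benjamini-Hochberg adjustment), and levels under 4 are treated as low signal. The value of a probe set was compared between groups only, since probe sets of different genes respond differently to the same amount of RNA. RNA amounts are those of whole cultures, in which fewer cells of a kind and less RNA per cell cannot be told apart.

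Proteins that enter the secretory pathway fold in the ER with the help of chaperones such as BiP, and those that fail are sent back to the cytosol for degradation. When unfolded proteins build up, the membrane sensors IRE1, PERK and ATF6 start the unfolded protein response. IRE1 splices the XBP1 mRNA, PERK phosphorylates eIF2alpha and so lowers protein synthesis, and ATF6 is cut to release a transcription factor. Spliced XBP1 and cleaved ATF6 raise transcription of chaperone and degradation genes through ER stress response elements, in which a CCAAT box is bound by NF-Y. Secretory cells such as plasma cells depend strongly on this pathway, and myeloid cells use it for the granule and surface proteins they make.

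Because the response acts through short promoter elements, the promoters of the members were searched for 3 of them before their levels are described. RefSeq windows from 250 bases before to 50 bases after the transcription start (GRCh38.p14) were at hand for 36 of the 40 listed genes, and both strands were searched. The ER stress response element, searched as CCAAT and CCACG with 9 free letters between them, was present in 8 of 36 members (22.2%) and in 25 of 27305 genes with a window (0.0916%). Those members were HSPA5, HSP90B1, CALR, CANX, PDIA6, ERO1B, CRELD2 and XBP1. The ER stress response element II, searched as ATTGG and CCACG with 1 free letter between them, was present in HYOU1, HERPUD1 and SDF2L1, which is 8.33% of members, against 0.0696% of genes. The unfolded protein response element, searched as TGACGTGG, was present in DNAJC10, HYOU1, TXNDC5 and TXNDC11, which is 11.1% of members, against 0.927% of genes. One TGACGTGG match in HYOU1 overlaps one of its element II matches on the other strand. Both the gene list and these motifs were drawn from knowledge of this response, so a higher share among members was built in and tests nothing. A match describes these letters only, and a window without one says nothing of binding elsewhere.

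The matched sites of the first element are shown to compare their spacers. Each is written in the orientation of the motif, with the letters fixed by the motif in capitals and the 9 free letters in lower case. HSP90B1, the ER form of HSP90, is the one member with a pair of sites.
HSPA5, chr9:125241391-125241409, minus strand gene: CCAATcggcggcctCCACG
HSP90B1, chr12:103930216-103930234, plus strand gene: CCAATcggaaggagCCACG
HSP90B1, chr12:103930321-103930339, plus strand gene, opposite orientation: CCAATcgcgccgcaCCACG
CALR, chr19:12938384-12938402, plus strand gene, opposite orientation: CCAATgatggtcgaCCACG
CANX, chr5:179698778-179698796, plus strand gene: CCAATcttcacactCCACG
PDIA6, chr2:10812853-10812871, minus strand gene: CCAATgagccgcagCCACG
ERO1B, chr1:236282183-236282201, minus strand gene, opposite orientation: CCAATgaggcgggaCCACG
CRELD2, chr22:49918554-49918572, plus strand gene, opposite orientation: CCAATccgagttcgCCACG
XBP1, chr22:28800603-28800621, minus strand gene: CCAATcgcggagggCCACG

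Promoters are shown for the 5 folding or degradation members with a match and the largest differences from vehicle. Each line gives the 250 bases before the transcription start on the strand of the gene, in GRCh38.p14, with the letters fixed by a matched motif in capitals.
SDF2L1, chr22:21642052-21642301, plus strand: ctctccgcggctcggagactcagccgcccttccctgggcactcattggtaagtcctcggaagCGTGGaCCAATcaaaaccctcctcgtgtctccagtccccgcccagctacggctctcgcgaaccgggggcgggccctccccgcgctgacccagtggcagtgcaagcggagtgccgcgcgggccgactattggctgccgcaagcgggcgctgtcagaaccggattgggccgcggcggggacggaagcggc
CRELD2, chr22:49918384-49918633, plus strand: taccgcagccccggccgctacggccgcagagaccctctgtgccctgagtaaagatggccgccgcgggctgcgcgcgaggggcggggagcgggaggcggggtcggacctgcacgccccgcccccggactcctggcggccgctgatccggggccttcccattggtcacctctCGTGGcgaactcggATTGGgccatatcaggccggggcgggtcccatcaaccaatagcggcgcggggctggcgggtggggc
HYOU1, chr11:119057206-119057455, minus strand: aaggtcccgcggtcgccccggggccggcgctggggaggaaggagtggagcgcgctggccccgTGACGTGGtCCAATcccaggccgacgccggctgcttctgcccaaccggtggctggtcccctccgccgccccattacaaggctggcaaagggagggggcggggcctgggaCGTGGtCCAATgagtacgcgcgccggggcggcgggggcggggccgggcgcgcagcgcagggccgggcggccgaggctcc
HSPA5, chr9:125241344-125241593, minus strand: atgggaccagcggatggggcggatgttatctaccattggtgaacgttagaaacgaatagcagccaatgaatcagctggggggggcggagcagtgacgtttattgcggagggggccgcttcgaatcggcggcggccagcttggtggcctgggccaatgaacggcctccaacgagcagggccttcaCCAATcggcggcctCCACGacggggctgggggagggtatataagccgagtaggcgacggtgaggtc
HERPUD1, chr16:56931892-56932141, plus strand: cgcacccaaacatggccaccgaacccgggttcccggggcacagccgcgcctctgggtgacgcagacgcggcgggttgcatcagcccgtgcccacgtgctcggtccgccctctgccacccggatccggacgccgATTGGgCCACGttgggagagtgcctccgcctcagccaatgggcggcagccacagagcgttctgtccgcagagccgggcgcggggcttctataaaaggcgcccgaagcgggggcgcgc
In HSPA5 the match ends 47 bases before the start, in CRELD2 61 bases, in HERPUD1 106 bases and in SDF2L1 177 bases before it. HYOU1 has its pair of element II matches 174 and 68 bases before the start, both in the opposite orientation.

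**Figure D1:**
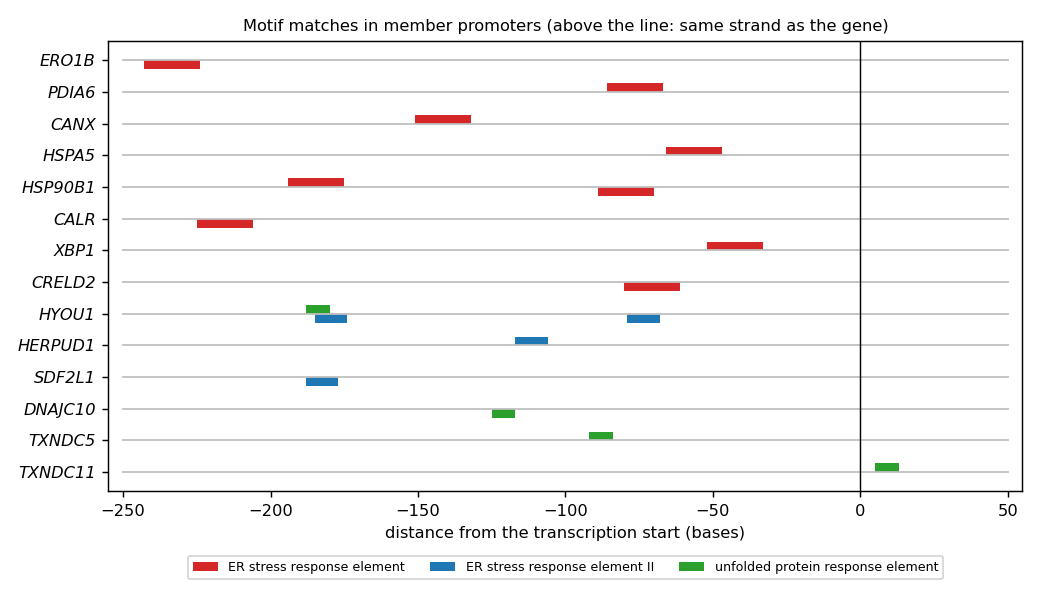
Positions of the motif matches in the members' promoter windows, in bases from the transcription start (vertical line at 0), with matches on the strand of the gene above each line and those on the other strand below it. The 8 members with the ER stress response element fill the upper rows, and the matches of HSPA5 and XBP1 lie nearest to the start among them.

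Before the members are described, 3 facts of the arrays bear on them. Of 9 measured myeloid markers, 7 had a vehicle mean of at least 4, among them LYZ, ITGB2 and PTPRC, while FCGR1A and MPO were low. Of 8 markers of other lineages 7 were under 4 in vehicle, and the exception was PECAM1, which myeloid cells also express. At 24 h 4 of the 9 myeloid markers were higher than in vehicle and 1 was lower, against 17.8% of all genes higher and 18.9% lower. Among genes with a mean of at least 4 those shares were 25.9% and 37.1%. The marker that was lower was CSF3R, with 7.25 ± 0.29 at 24 h and 7.82 ± 0.08 in vehicle (SD, n = 3 each). PTPRC averaged 11.81 ± 0.09 at 24 h and 10.22 ± 0.16 in vehicle, ITGAM 9.13 ± 0.08 and 7.56 ± 0.05, SPI1 7.33 ± 0.34 and 5.75 ± 0.10, and PECAM1 10.67 ± 0.08 and 9.22 ± 0.08 (SD, n = 3 each). The poly-A spike-in controls averaged 3.04 ± 0.05, 3.08 ± 0.06, 7.02 ± 0.15 and 8.47 ± 0.05 in the vehicle, 90 min, 4 h and 24 h arrays (SD, n = 3 each), so they were at background in the first 2 groups and bright in the other two. The difference in ACTB signal between its 3′ and 5′ probe sets averaged 0.80 ± 0.03, 0.83 ± 0.02, 0.96 ± 0.17 and 0.96 ± 0.04 in the same order. Replicate 2 of the 4 h group had the highest array median (3.10, against 2.84 to 2.99 in the other arrays). It also had the largest ACTB difference (1.15, against 0.77 to 0.99 in the other arrays), and its values are given apart where they matter. The 90 min and vehicle arrays thus both lacked a bright poly-A signal, and the 24 h and 4 h arrays both had one. The hybridization controls averaged 9.96, 10.03, 10.21 and 11.70, highest at 24 h. The part of these differences in the results was not tested.

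At 90 min of JS-K, folding genes made up nearly all of the members that rose. Of the 37 members 11 were higher than in vehicle and 1 was lower, and 10 of the 11 were folding genes: HSPA5, HSP90B1, SDF2L1, DNAJB9, DNAJB11, DNAJC3, PDIA3, PDIA6, CRELD2 and MANF. The share higher among folding genes was 50% (10 of 20), against 4.03% of all genes higher and 5.62% lower. Among the 9551 genes with a mean of at least 4, to which all but DERL3 and WFS1 of the members belong, 8.05% were higher. With the replicate numbers as a block, 13 members were higher and 1 was lower at 90 min, against 4.14% and 5.68% of all genes. The median difference of the folding genes was 0.28, that of all genes 0.01. HERPUD1 was the one degradation gene that rose, and no sensor and no entry or export gene was called.

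By 24 h most folding genes were lower than in vehicle. Of the members 16 were lower than in vehicle and 5 were higher, with 13 of 20 folding genes lower (65%) and 1 higher, against 18.9% of all genes lower and 17.8% higher. At a mean level of at least 4 those shares were 37.1% and 25.9%. Without replicate 2 of the 4 h group, whose arrays this comparison does not use, 52% of all genes were higher and 21.3% lower, with 8 members higher. The folding genes had a median difference of -0.46, the degradation genes 0.15 and all genes 0.06. Among the 8 degradation genes 3 were higher and 1 was lower. The folding genes HSPA5, HSP90B1, SDF2L1, DNAJB9, PDIA6, CRELD2 and MANF were higher at 90 min and lower at 24 h. The share of all genes that did both was not counted, so how unusual this pattern is cannot be read here. All comparisons with vehicle share the same 3 vehicle arrays.

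At 4 h the picture was mixed. The members held 11 higher and 3 lower genes, a share of 29.7% higher, against 23.9% of all genes, while 8.11% were lower, against 16.6% of all genes. Among genes with a mean of at least 4 the shares were 14.7% higher and 32.4% lower. The share of all genes higher at 4 h moved far with single arrays: it was 5.95%, 6.77% and 5.67% without vehicle replicate 1, 2 or 3, with 9 members higher each time. It was 32.8%, 12.5% and 41.2% without 4 h replicate 1, 2 or 3, with 11 members higher each time. The members' share at 4 h thus has no fixed background to be read against. Of the folding genes 7 were higher and 1 was lower, with a median of 0.17 against 0.06 for all genes. DERL1, XBP1 and SEC24D were higher at 4 h and not called at 90 min. No member was higher at all 3 times, and the share of all genes that were was not counted.

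**Figure D2:**
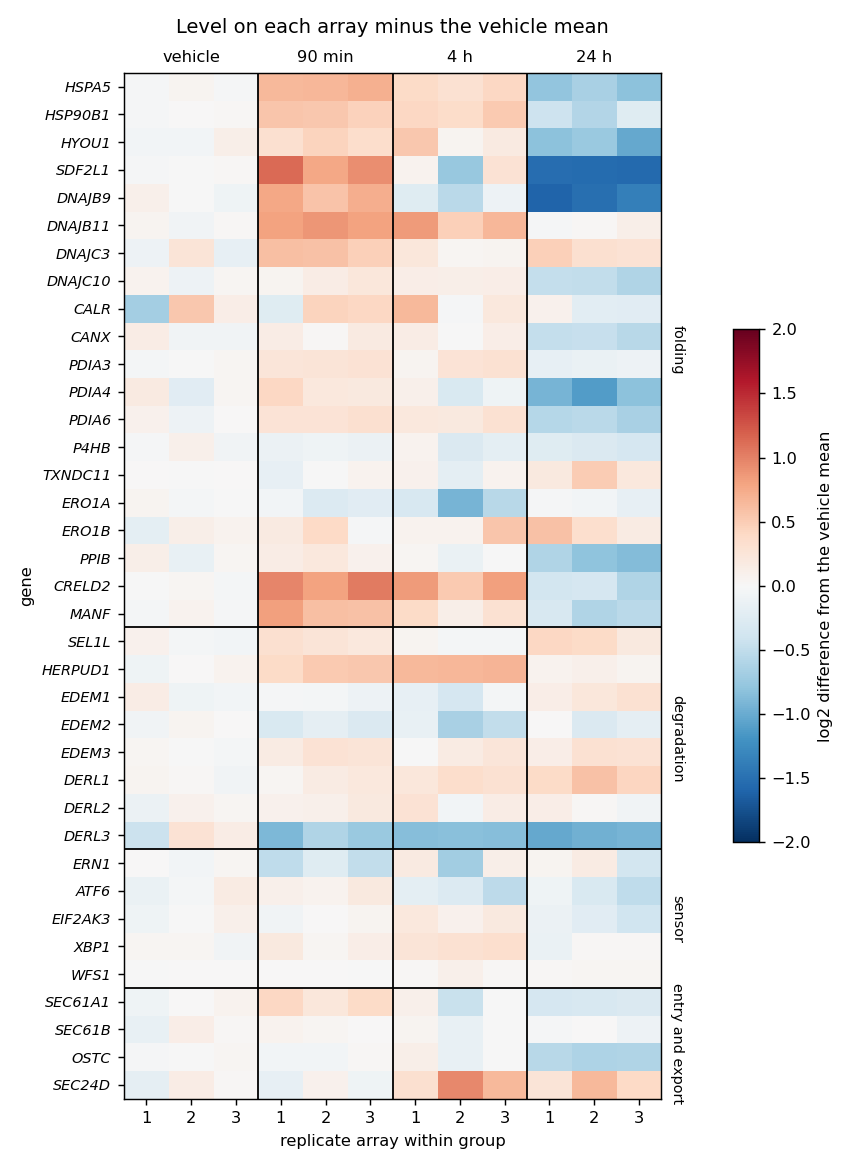
Heat map of the members (rows, by role) over the 12 arrays (columns, from vehicle to 24 h), coloured by the log2 level minus the mean of the vehicle arrays. Of the 20 folding genes 17 have a mean above that of vehicle at 90 min and 16 under it at 24 h, while DERL1 stays above vehicle at 4 h and 24 h.

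HSPA5 encodes BiP, the HSP70 chaperone of the ER, which also holds the stress sensors inactive. Its log2 levels were 12.81, 12.90 and 12.82 in vehicle, 13.49, 13.51 and 13.55 at 90 min, 13.23, 13.14 and 13.25 at 4 h, and 12.04, 12.19 and 12.02 at 24 h. The 4 groups did not overlap, with 90 min highest and 24 h lowest. Against vehicle it was 1.59-fold higher at 90 min (log2 difference 0.67 ± 0.05 SE, adjusted p = 8.4e-06) and 1.29-fold higher at 4 h (0.37 ± 0.05, adjusted p = 0.00032). At 24 h it was 1.69-fold lower than in vehicle (-0.76 ± 0.05, adjusted p = 2.07e-07). Its second probe set moved further in the same directions, by 1.42 at 90 min and -1.09 at 24 h. All calls of HSPA5 held in every alternative run.

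HSP90B1 encodes GRP94, which folds Toll-like receptors and integrins among others. Levels of this gene were 10.82, 10.85 and 10.87 in vehicle, 11.40, 11.39 and 11.31 at 90 min, 11.27, 11.21 and 11.38 at 4 h, and 10.44, 10.26 and 10.60 at 24 h. The early JS-K arrays lay above all vehicle arrays and the 24 h arrays under them. The difference from vehicle was 0.52 ± 0.08 at 90 min (adjusted p = 0.00125), 0.44 ± 0.08 at 4 h (adjusted p = 0.00154) and -0.41 ± 0.08 at 24 h (adjusted p = 0.00104). With the mean of its probe sets the 4 h call ended (0.31, adjusted p = 0.111).

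Nucleotide exchange on BiP is carried out by HYOU1, also called GRP170. It had 9.84, 9.85 and 10.02 in vehicle, 10.23, 10.35 and 10.26 at 90 min, 10.44, 9.95 and 10.09 at 4 h, and 9.09, 9.16 and 8.88 at 24 h. The 90 min arrays lay above the vehicle arrays, yet the difference of 0.38 ± 0.12 was not called (adjusted p = 0.0682). In the fit without replicate 2 of the 4 h group, whose arrays this comparison does not use, it passed (adjusted p = 0.0352), as did the 4 h difference of 0.36 (adjusted p = 0.0425). At 24 h HYOU1 was 1.81-fold lower than in vehicle (-0.86 ± 0.12, adjusted p = 6.6e-05), with no overlap.

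SDF2L1, an ER protein that works with the J proteins of BiP, had the largest differences from vehicle of all members at 90 min and 24 h. Its levels were 9.03, 9.05 and 9.07 in vehicle, 10.18, 9.83 and 9.99 at 90 min, 9.12, 8.30 and 9.34 at 4 h, and 7.53, 7.52 and 7.49 at 24 h. The 90 min arrays were all higher and the 24 h arrays all lower than any vehicle array, and at 4 h one array lay under vehicle and the other two above it. SDF2L1 was 1.93-fold higher at 90 min (0.95 ± 0.20, adjusted p = 0.01) and 2.9-fold lower at 24 h (-1.54 ± 0.20, adjusted p = 4.98e-05). At 4 h the difference from vehicle was -0.13 ± 0.20 (adjusted p = 0.583), and 0.18 without the low replicate 2 (adjusted p = 0.169).

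The J proteins send substrates to BiP and start its ATPase. By the probe sets taken, all but DNAJC10 rose at 90 min, and at 24 h DNAJB9 and DNAJC10 were lower and DNAJC3 was higher. DNAJB9 (ERdj4), which also represses IRE1, had 7.78, 7.66 and 7.58 in vehicle, 8.44, 8.25 and 8.40 at 90 min, 7.44, 7.14 and 7.58 at 4 h, and 6.07, 6.17 and 6.31 at 24 h. Its 24 h arrays were the lowest and its 90 min arrays the highest, with no overlap with vehicle. It was 1.61-fold higher than in vehicle at 90 min (0.69 ± 0.12, adjusted p = 0.00373) and 2.82-fold lower at 24 h (-1.49 ± 0.12, adjusted p = 9.12e-07). The 4 h difference of -0.29 ± 0.12 was not called (adjusted p = 0.0692), but was without replicate 3 of the 4 h group (-0.39, adjusted p = 0.0273).

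DNAJB11 (ERdj3), a secreted and luminal cochaperone, had 9.99, 9.86 and 9.96 in vehicle, 10.75, 10.82 and 10.74 at 90 min, 10.79, 10.41 and 10.61 at 4 h, and 9.92, 9.96 and 10.05 at 24 h. At 24 h its arrays overlapped those of vehicle. It was 1.78-fold higher at 90 min (0.83 ± 0.09, adjusted p = 7.58e-05) and 1.59-fold higher at 4 h (0.67 ± 0.09, adjusted p = 0.000134), and at 24 h the difference was 0.04 ± 0.09 (adjusted p = 0.701). DNAJC3 (p58IPK), an inhibitor of PERK and a cochaperone, was higher at 90 min (0.55 ± 0.11, adjusted p = 0.0052) and at 24 h (0.36 ± 0.11, adjusted p = 0.0174), with 0.11 ± 0.11 at 4 h. Its 24 h call ended without vehicle replicate 1 (adjusted p = 0.0716), vehicle replicate 3 (adjusted p = 0.0845) or 24 h replicate 1 (adjusted p = 0.0717), and both calls ended with the mean of its 4 probe sets. DNAJC10 (ERdj5), a reductase that opens disulfides of proteins bound for degradation, was lower at 24 h (-0.52 ± 0.06, adjusted p = 2.71e-05) and not called earlier by the probe set taken. Of its 4 other probe sets 1 was called higher at 90 min (0.79, adjusted p = 0.0118, over all probe sets) and at 4 h (0.73, adjusted p = 0.00818), and it had -0.74 at 24 h. The remaining 3 were not called at 90 min or 4 h.

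CRELD2 and MANF are small secreted proteins of the ER that are typical targets of the response. CRELD2 had 8.71, 8.75 and 8.68 in vehicle, 9.69, 9.52 and 9.76 at 90 min, 9.57, 9.24 and 9.54 at 4 h, and 8.35, 8.37 and 8.12 at 24 h. No JS-K group overlapped vehicle. Its difference from vehicle was 0.94 ± 0.10 at 90 min (adjusted p = 0.000134), 0.74 ± 0.10 at 4 h (adjusted p = 0.000272) and -0.43 ± 0.10 at 24 h (adjusted p = 0.00539), and these calls held in every alternative run.

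MANF, which binds BiP and is neuroprotective when secreted, had 10.58, 10.70 and 10.60 in vehicle, 11.45, 11.23 and 11.21 at 90 min, 11.01, 10.75 and 10.93 at 4 h, and 10.31, 10.03 and 10.10 at 24 h. It too kept apart from vehicle at each time. The differences were 0.67 ± 0.09 (adjusted p = 0.000677), 0.26 ± 0.09 (adjusted p = 0.0456) and -0.48 ± 0.09 (adjusted p = 0.00116). The 4 h call was the weakest and ended when any 1 of the 3 vehicle arrays (adjusted p 0.065 to 0.128), or replicate 1 (adjusted p = 0.0981) or 3 (adjusted p = 0.0726) of the 4 h group, was left out.

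**Figure D3:**
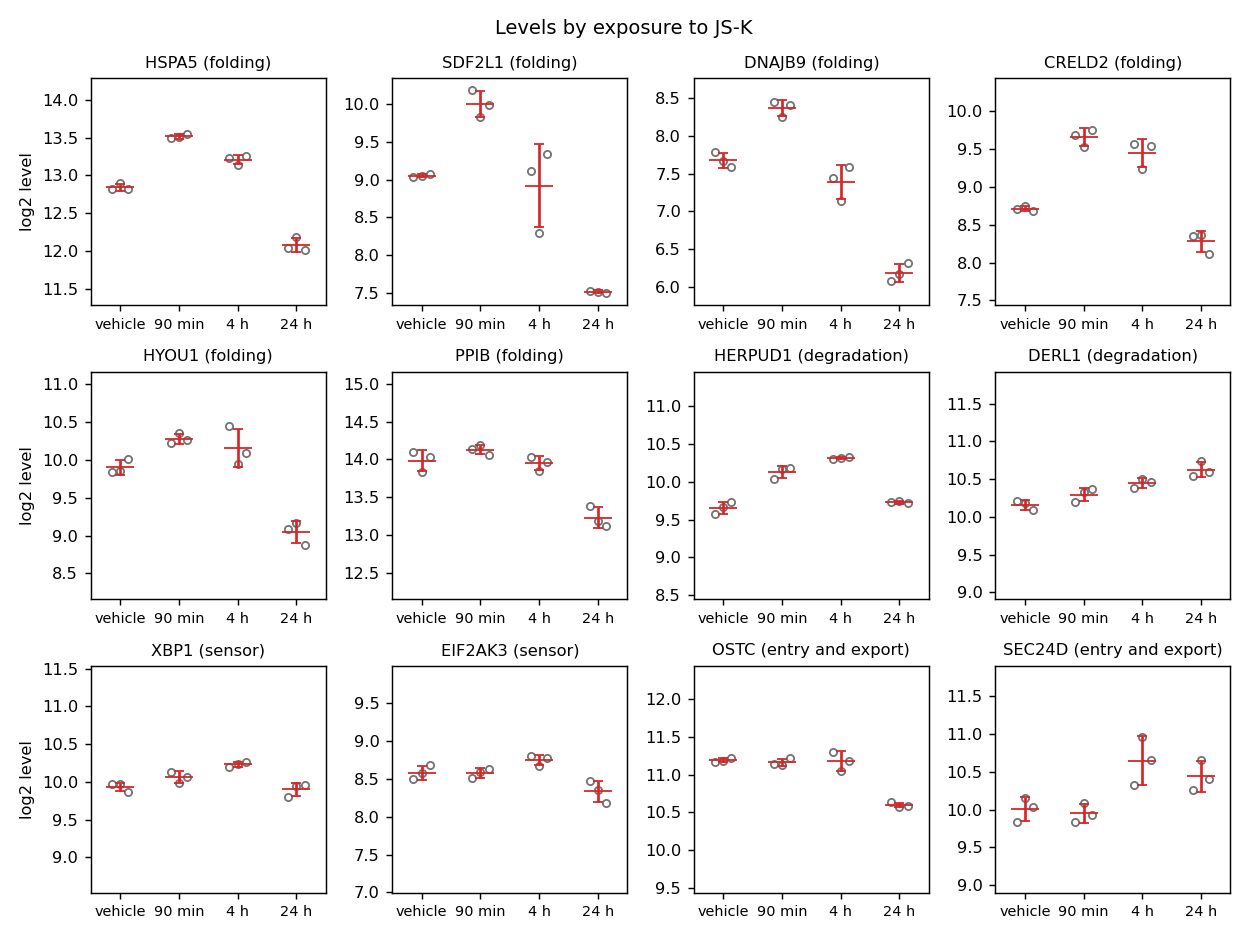
Log2 levels of selected members in the 4 groups, from vehicle to 24 h, with an open circle for each array, a red line at each group mean and bars of 1 SD (n = 3). HSPA5, SDF2L1 and DNAJB9 are highest at 90 min and lowest at 24 h, and DERL1 is highest at 24 h.

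Of the lectin chaperones, which hold glycoproteins until they have folded, CANX fell at 24 h and CALR was not called by the probe set taken. CANX, the membrane-bound calnexin, had 11.34, 11.36 and 11.27 at 24 h, against 11.96, 11.75 and 11.74 in vehicle, and was 1.41-fold lower at 24 h than in vehicle (-0.49 ± 0.07, adjusted p = 0.000112). CALR, the soluble calreticulin, varied most within groups, with 8.87, 10.09 and 9.68 in vehicle, and its differences of 0.20, 0.28 and -0.12 at 90 min, 4 h and 24 h each had an SE of 0.28. Differences of that size could not be told from the spread between these arrays. A second CALR probe set was called higher at 90 min (0.81, adjusted p = 0.0495, over all probe sets) and 4 h (1.09, adjusted p = 0.00451) and lower at 24 h (-0.72, adjusted p = 0.0272). The third CALR probe set had -0.36, 0.05 and 0.98, not called. The probe sets of CALR therefore do not settle its direction.

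Among the enzymes that form and shuffle disulfides, PDIA3 and PDIA6 rose early, and PDIA4, PDIA6 and P4HB fell late. PDIA6, an isomerase that also attenuates IRE1, had 12.51, 12.31 and 12.42 in vehicle, 12.69, 12.69 and 12.73 at 90 min, 12.63, 12.60 and 12.72 at 4 h, and 11.85, 11.87 and 11.77 at 24 h. The small early shift had no overlap with vehicle and the late fall was larger. Its differences were 0.29 ± 0.06 (adjusted p = 0.00575), 0.24 ± 0.06 (adjusted p = 0.00864) and -0.58 ± 0.06 (adjusted p = 3.31e-06). Its other probe sets moved by -0.02 to 0.04 at 90 min and by -0.76 to -0.62 at 24 h, so the early call rests on 1 of 4 probe sets.

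PDIA3 (ERp57), the isomerase that works with the lectins, was higher at 90 min (0.26 ± 0.06, adjusted p = 0.0159) and at 4 h (0.21 ± 0.06, adjusted p = 0.0263). The 90 min call ended without vehicle replicate 1 (adjusted p = 0.0611), vehicle replicate 2 (adjusted p = 0.0516), or 90 min replicate 2 (adjusted p = 0.0575) or 3 (adjusted p = 0.0637), and its 2 other probe sets were called as well, with 0.80 and 1.05. Without replicate 2 of the 4 h group the 4 h call ended (adjusted p = 0.063), as it did without vehicle replicate 1 (adjusted p = 0.0912) or 2 (adjusted p = 0.062). PDIA4 (ERp72), an isomerase with several active sites, was 1.94-fold lower at 24 h (-0.96 ± 0.13, adjusted p = 5.71e-05), and its other probe set was called higher at 4 h (0.42, adjusted p = 0.0438, over all probe sets). Another PDIA3 probe set was called lower at 24 h (-0.59, adjusted p = 0.00691). P4HB, the classical protein disulfide isomerase, was lower at 24 h (-0.29 ± 0.08, adjusted p = 0.0133), a call that ended without vehicle replicate 2 (adjusted p = 0.0589) or 24 h replicate 3 (adjusted p = 0.0503). A second P4HB probe set was called lower already at 90 min (-0.16, adjusted p = 0.0379) and 4 h (-0.20, adjusted p = 0.00426).

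ERO1A, the oxidase that recharges the isomerases, was lower at 4 h and, by the probe set taken, was not called at 90 min or 24 h. Its levels were 9.89, 9.79 and 9.82 in vehicle, 9.77, 9.56 and 9.61 at 90 min, 9.52, 8.90 and 9.28 at 4 h, and 9.80, 9.77 and 9.67 at 24 h. It was lowest at 4 h and back within the range of the vehicle arrays at 24 h in 1 of 3 arrays, the others lying just under it. ERO1A was 1.52-fold lower at 4 h (-0.60 ± 0.13, adjusted p = 0.00391), and -0.43 without replicate 2 of that group (adjusted p = 0.00504). Its 2 other probe sets were both called lower at 4 h too, with -0.56 and -0.45. The one with -0.45 (adjusted p = 0.00162, over all probe sets) was also called lower at 90 min (-0.47, adjusted p = 0.00307), and the other was not. ERO1B, the second oxidase, and TXNDC11, a thioredoxin-domain protein of the ER, were not called in any comparison. TXNDC11 was 0.30 ± 0.12 higher at 24 h without passing (adjusted p = 0.0589), and passed in the fit without 4 h replicate 2 (adjusted p = 0.0174).

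PPIB, the prolyl isomerase cyclophilin B, had 13.39, 13.18 and 13.11 at 24 h, against 14.10, 13.83 and 14.03 in vehicle. The groups did not overlap, and it was 1.69-fold lower at 24 h (-0.76 ± 0.08, adjusted p = 1.01e-05). At 90 min and 4 h its differences were 0.15 ± 0.08 and -0.03 ± 0.08, not called. By the probe sets taken, the folding genes HYOU1, DNAJC10, CANX, PDIA4, P4HB and PPIB were lower at 24 h and not called earlier. EIF2AK3 and OSTC had the same calls, and the share of all genes with them was not counted. For DNAJC10, P4HB and PDIA4 another probe set was called before 24 h, as given above.

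Of the 8 degradation genes, HERPUD1 was higher at 90 min and 4 h, and SEL1L, EDEM3 and DERL1 were called higher at 24 h. HERPUD1, which gathers the ubiquitin ligase complex at the ER membrane, had 9.57, 9.66 and 9.73 in vehicle, 10.04, 10.17 and 10.19 at 90 min, 10.31, 10.32 and 10.33 at 4 h, and 9.73, 9.75 and 9.71 at 24 h. It was highest at 4 h, and at 24 h its arrays overlapped those of vehicle. It was 1.39-fold higher at 90 min (0.48 ± 0.06, adjusted p = 0.000436) and 1.58-fold higher at 4 h (0.66 ± 0.06, adjusted p = 1.22e-05), with 0.08 ± 0.06 at 24 h. Its second probe set moved by 0.08 at 90 min, and with the mean of both the 90 min call ended (0.28, adjusted p = 0.288).

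DERL1, a channel-forming protein through which substrates leave the ER, had 10.21, 10.18 and 10.09 in vehicle, 10.20, 10.32 and 10.36 at 90 min, 10.38, 10.51 and 10.46 at 4 h, and 10.54, 10.74 and 10.59 at 24 h. Its 4 h and 24 h arrays all lay above vehicle. The differences were 0.14 ± 0.07, not called, at 90 min, 0.29 ± 0.07 at 4 h (adjusted p = 0.00976) and 0.47 ± 0.07 at 24 h (adjusted p = 0.00016). The 4 h call ended without vehicle replicate 3 (0.25, adjusted p = 0.0514). Of its 3 other probe sets 1 was called higher too, at 4 h (0.34, adjusted p = 0.0214, over all probe sets) and 24 h (0.47, adjusted p = 0.00131). A second, of nearly the same average level as the one taken (10.33 against 10.38), had -0.15 and -0.05, not called, and the third was at low signal, with 0.09 and -0.02. DERL2, its relative, was not called. DERL3 was lower at all 3 times (-0.75, -0.85 and -0.97, each ± 0.15), but at low signal: 3.03 to 3.46 in the JS-K arrays, against 3.63, 4.35 and 4.20 in vehicle.

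EDEM1, EDEM2 and EDEM3 trim mannose from glycoproteins and so mark them for removal. EDEM3 was higher at 24 h (0.24 ± 0.07, adjusted p = 0.0172), a call that ended without vehicle replicate 3 (adjusted p = 0.0633), or 24 h replicate 2 (adjusted p = 0.0689) or 3 (adjusted p = 0.0648). Another EDEM3 probe set was called higher at 4 h as well (0.49, adjusted p = 0.0186, over all probe sets). EDEM2 was lower at 4 h (-0.43 ± 0.12, adjusted p = 0.0169), which ended without 4 h replicate 2 (-0.32, adjusted p = 0.0537) and without vehicle replicate 2 (adjusted p = 0.0558) or 3 (adjusted p = 0.0541). EDEM1 had 0.22 ± 0.09 at 24 h without passing (adjusted p = 0.0702), and passed without vehicle replicate 1 (0.29, adjusted p = 0.0331) or 4 h replicate 2 (adjusted p = 0.0201).

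SEL1L, the scaffold of the ubiquitin ligase that SYVN1 encodes, had 8.64, 8.51 and 8.50 in vehicle, 8.88, 8.81 and 8.76 at 90 min, 8.61, 8.51 and 8.52 at 4 h, and 8.96, 8.94 and 8.74 at 24 h. It was called higher at 24 h (0.33 ± 0.08, adjusted p = 0.00653), but its 3 other probe sets moved by -1.15 to 0.04, and 1 of them was called lower. With the mean of its probe sets the difference was -0.41. Its direction at 24 h is therefore not settled by these probe sets, and it was the one member with such opposite calls against vehicle, apart from low-signal probe sets of ERN1.

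Of the 5 sensors and effectors, XBP1 was higher at 4 h and EIF2AK3 was lower at 24 h, and no other call was made against vehicle. By the probe sets taken, ERN1 (IRE1) and ATF6 were not called in any comparison, with ERN1 at 7.57, 7.51 and 7.60 in vehicle, 7.05, 7.32 and 7.08 at 90 min, 7.75, 6.86 and 7.68 at 4 h, and 7.62, 7.73 and 7.19 at 24 h. Its 90 min arrays all lay under vehicle (-0.41 ± 0.21, adjusted p = 0.349), and without 4 h replicate 2 its level at 4 h was higher than at 90 min (0.57, adjusted p = 0.0391). ATF6 had differences of 0.12, -0.33 and -0.30, each ± 0.15. WFS1, an ER membrane protein that restrains ATF6, was at low signal in all groups, with means of 2.12, 2.13, 2.17 and 2.15.

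EIF2AK3 (PERK) had 8.47, 8.35 and 8.19 at 24 h, against 8.50, 8.58 and 8.68 in vehicle, and the difference of -0.25 ± 0.09 was just past the threshold (adjusted p = 0.0475). That call ended without vehicle replicate 2 (adjusted p = 0.0892) or 3 (adjusted p = 0.16), or without 24 h replicate 2 (adjusted p = 0.0919) or 3 (adjusted p = 0.18), and with the replicate numbers as a block (adjusted p = 0.0597). XBP1, the mRNA that IRE1 splices, had 9.97, 9.97 and 9.87 in vehicle, 10.13, 9.98 and 10.07 at 90 min, 10.20, 10.23 and 10.27 at 4 h, and 9.80, 9.95 and 9.96 at 24 h. It was higher than in vehicle at 4 h only (0.30 ± 0.07, adjusted p = 0.00558), and its probe set does not tell the spliced mRNA from the unspliced one. With the mean of its 2 probe sets, the other of which was at low signal, the 4 h call ended (0.21, adjusted p = 0.067).

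At the gates of the ER, SEC24D, a cargo adaptor of the COPII coat, had 9.83, 10.15 and 10.03 in vehicle, 9.84, 10.09 and 9.92 at 90 min, 10.32, 10.96 and 10.66 at 4 h, and 10.26, 10.66 and 10.40 at 24 h. It was 1.56-fold higher at 4 h (0.64 ± 0.15, adjusted p = 0.00844), and 0.48 without replicate 2 of that group (adjusted p = 0.0337). Its 24 h difference of 0.43 ± 0.15 (adjusted p = 0.0414) lost its call without vehicle replicate 1 (adjusted p = 0.15) or 3 (adjusted p = 0.0826), or 24 h replicate 2 (adjusted p = 0.147) or 3 (adjusted p = 0.0778). That call also ended with a constant prior spread, averaged probe sets, quantile normalization or array medians subtracted. The 2 other SEC24D probe sets had 0.31 and 0.56 at 4 h, 1 of them called higher, and -0.02 and 0.11 at 24 h, not called. OSTC, a subunit of the oligosaccharyltransferase, had 10.63, 10.57 and 10.59 at 24 h, against 11.17, 11.18 and 11.23 in vehicle, with no overlap. It was 1.51-fold lower at 24 h (-0.59 ± 0.06, adjusted p = 8.52e-06).

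Of the translocon subunits, SEC61B was not called in any comparison. SEC61A1, the channel itself, had 9.72, 9.82 and 9.89 in vehicle, 10.22, 10.03 and 10.20 at 90 min, 9.91, 9.37 and 9.81 at 4 h, and 9.47, 9.50 and 9.52 at 24 h. The vehicle, 90 min and 24 h groups did not overlap, but neither difference from vehicle passed (0.34 ± 0.12, adjusted p = 0.105, and -0.32 ± 0.12, adjusted p = 0.0508). In the fit without replicate 2 of the 4 h group both passed, with adjusted p = 0.00584 at 90 min and 0.00209 at 24 h. Its other probe set was called lower at 24 h (-0.54, adjusted p = 0.00427, over all probe sets).

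**Figure D4:**
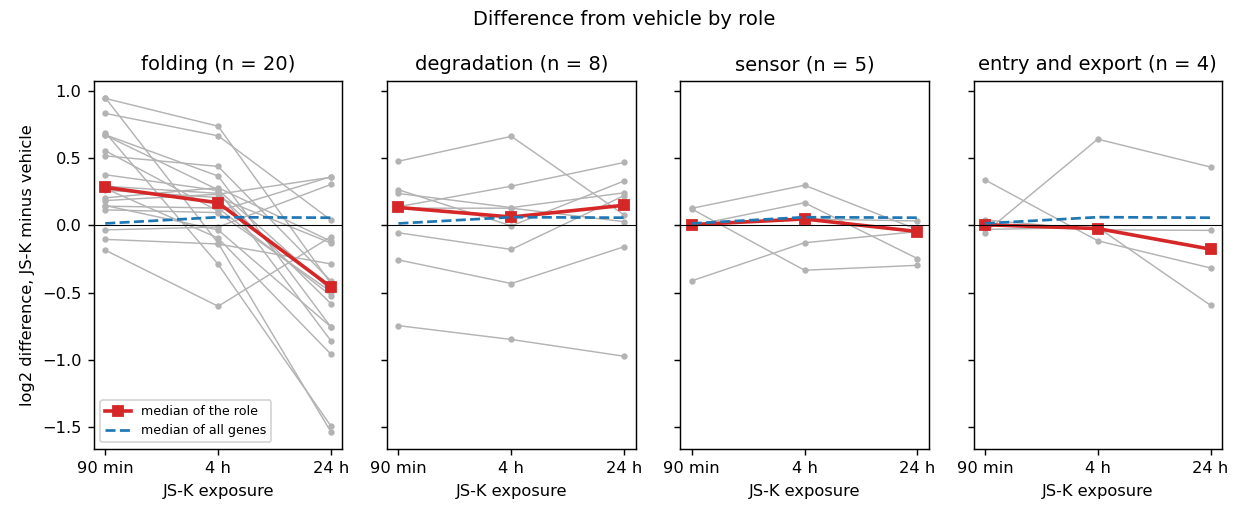
Log2 differences from vehicle at 90 min, 4 h and 24 h, in 1 panel for each role, with a grey line for each gene, red squares at the median of the role and a dashed line at the median of all genes. The folding genes have medians of 0.28, 0.17 and -0.46, and the degradation genes end at 0.15.

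The change between times was tested directly. From 90 min to 4 h, 6 members were lower and 1 was higher at 4 h, against 7.25% of all genes lower and 3.33% higher, and the 6 are 16.2% of the members. Among genes with a mean of at least 4, 14.7% were lower and 6.42% higher, so the members' share lies near that of genes of like level. With the replicate numbers as a block 9 members were lower and 1 was higher, against 7.57% and 3.55% of all genes. SDF2L1 (-1.08 ± 0.20, adjusted p = 0.00423) and DNAJB9 (-0.98 ± 0.12, adjusted p = 0.000314) had the largest of these differences, and without replicate 2 of the 4 h group they were -0.77 and -0.86. HSPA5 (-0.31), DNAJC3 (-0.45), MANF (-0.41) and SEC61A1 (-0.45) were the other members lower at 4 h, and SEC24D was the one higher (0.70 ± 0.15, adjusted p = 0.0105). With the mean of its probe sets the call of SEC24D ended (adjusted p = 0.0726). Without replicate 2 of the 4 h group the calls of MANF (adjusted p = 0.0564) and DNAJC3 (adjusted p = 0.0589) ended. Without 90 min replicate 1 those of MANF (adjusted p = 0.0711), DNAJC3 (adjusted p = 0.0643) and SEC61A1 (adjusted p = 0.0989) ended, which left 3 members lower. DNAJC3 also lost its call without 90 min replicate 2 (adjusted p = 0.0576) or 4 h replicate 3 (adjusted p = 0.0528), and SEC61A1 without 90 min replicate 3 (adjusted p = 0.099).

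From 4 h to 24 h, 18 members were lower and 3 were higher at 24 h, against 10.7% of all genes lower and 12.8% higher. Among genes with a mean of at least 4 those shares were 21.8% and 24.7%. Of the folding genes 14 of 20 were lower (70%), with a median of -0.69, against -0.01 for all genes. The largest falls were those of SDF2L1 (-1.40 ± 0.20), DNAJB9 (-1.20 ± 0.12), CRELD2 (-1.17 ± 0.10), HYOU1 (-1.12 ± 0.12) and HSPA5 (-1.12 ± 0.05). ERO1A (0.52 ± 0.13, adjusted p = 0.00838), EDEM1 (0.40 ± 0.09, adjusted p = 0.00495) and SEL1L (0.33 ± 0.08, adjusted p = 0.0087) were the 3 that were higher. The 3 other SEL1L probe sets had differences of -0.75 to 0.09, and 1 of them was called lower, so its direction is not settled here either. Besides the folding genes, HERPUD1 (-0.58), EIF2AK3 (-0.41), XBP1 (-0.33) and OSTC (-0.58) were lower. No call of this comparison ended when a single array was left out. With the mean of the probe sets those of SEL1L, HERPUD1 and XBP1 ended, and that of SEL1L also ended with only the 6 arrays compared.

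Some differences that were not called with all 12 arrays passed once 1 array was left out, besides those named above. Without 4 h replicate 1, P4HB was lower at 4 h (-0.25, adjusted p = 0.00836) and EDEM3 was higher (0.20, adjusted p = 0.0381). Without 4 h replicate 3, EDEM1 was lower at 4 h (-0.25, adjusted p = 0.036), and WFS1, at low signal, was higher (adjusted p = 0.0208). Without 4 h replicate 2, SEL1L passed at 90 min (0.26, adjusted p = 0.0451), WFS1 at 24 h (adjusted p = 0.00822) and SEC61A1 for 24 h against 4 h (-0.37, adjusted p = 0.00322). Without 4 h replicate 1, ERO1A (-0.56, adjusted p = 0.00574), PDIA4 (-0.47, adjusted p = 0.0363) and DNAJB11 (-0.26, adjusted p = 0.0451) were lower at 4 h than at 90 min, and EDEM2 was higher at 24 h than at 4 h (0.41, adjusted p = 0.00684).

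**Figure D5:**
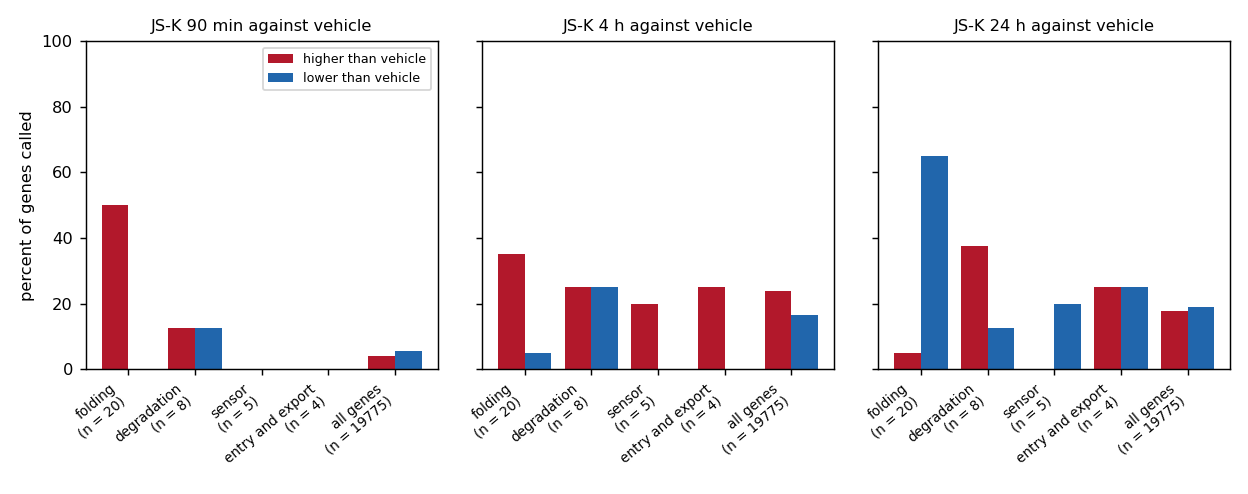
Share of the genes of each role and of all 19775 genes that were called higher (red) and lower (blue) than in vehicle at 90 min, 4 h and 24 h, in percent. The folding genes reach 50% higher at 90 min and 65% lower at 24 h, against 4.03% and 18.9% of all genes.

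The members that hold either form of the ER stress response element were set beside the others. Of the 11 measured members with one, 6 were higher at 90 min, 6 were higher at 4 h and 7 were lower at 24 h. Among all genes 4.03% were higher at 90 min, 23.9% higher at 4 h and 18.9% lower at 24 h, and at a mean of at least 4 these shares were 8.05%, 14.7% and 37.1%. Of the 22 measured members with a promoter window and neither form, 4 were higher at 90 min, 2 were higher and 2 lower at 4 h, and 8 were lower and 3 higher at 24 h. The median difference at 90 min was 0.38 with and 0.12 without a match, and at 24 h it was -0.43 and -0.12. All members with a match but HERPUD1 and XBP1 are folding genes, while those without one include most of the degradation, sensor and entry genes. The element and the role were not separated in these counts. DNAJB9, DNAJB11, DNAJC3 and MANF rose at 90 min without a match in the window, while CALR and ERO1B have one and were not called by the probe sets taken.

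Outside the list, genes with either form were called in both directions. Of 26 other measured genes with either form, 3 were higher at 90 min (FICD, NAV2 and SHCBP1) and 3 were lower (CAMTA1, TMEM120A and ZNF143). FICD, the enzyme that attaches AMP to BiP, was 1.52-fold higher at 90 min (0.60 ± 0.17, adjusted p = 0.0412). At 4 h 5 were higher and 4 lower, and at 24 h 4 were higher and 5 lower. Among those higher at 4 h, GLRA2 (0.09), LINC03006 (0.04) and PLS3 (0.12) were at low signal in both groups. These counts are descriptions, and no test of the difference between the sets was made. The shares of all genes given above are their background.

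The other genes of the pathway were read from 5 lists drawn up by function. Their counts stand beside 4.03% of all genes higher at 90 min and 18.9% lower at 24 h, or 8.05% and 37.1% of those whose mean was 4 or more. Of the 9 genes of the eIF2alpha and ATF4 arm, 2 were higher and 2 lower at 90 min, 2 and 2 at 4 h, and 3 and 3 at 24 h. PPP1R15A (GADD34), which brings a phosphatase to eIF2alpha, was higher at each time, by 1.76 ± 0.16, 2.31 ± 0.16 and 2.65 ± 0.16 (adjusted p = 2.65e-05, 9.9e-07 and 5.5e-08). ATF4, the transcription factor of that arm, was lower at 24 h (-0.55 ± 0.08, adjusted p = 7.39e-05), and so was EIF2S1, which encodes eIF2alpha itself (-0.87 ± 0.08, adjusted p = 2.56e-06).

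The 10 genes of ATF6 processing and of NF-Y had 2 lower and none higher at 90 min, 1 higher and 2 lower at 4 h, and 1 higher and 2 lower at 24 h. NFYA, a subunit of the CCAAT-binding factor, was lower at 24 h (-1.27 ± 0.12, adjusted p = 1.98e-06), as was CREB3L2, an ATF6-like factor (-0.54 ± 0.07, adjusted p = 5.94e-05). NFYC, another subunit, was higher at 24 h (0.37 ± 0.12, adjusted p = 0.024).

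Of 39 other ER folding genes, 3 were higher and 1 was lower at 90 min (7.69% higher), 9 and 10 at 4 h, and 9 and 15 at 24 h (38.5% lower). Of all genes 4.03% were higher at 90 min and 18.9% lower at 24 h, and of those with a mean of at least 4, 8.05% and 37.1%. How many of the 39 had such a mean was not counted. Which of these shares is their background is therefore not settled. MLEC, which binds newly made glycoproteins, was lower at 24 h (-1.39 ± 0.10), and so was FKBP7, a prolyl isomerase (-1.60 ± 0.14). CLGN, a calnexin relative of the testis, was also lower (-1.55 ± 0.19). The 25 other degradation genes had 4 higher and 3 lower at 90 min, 6 and 5 at 4 h, and 8 and 6 at 24 h. ERLIN1, a membrane factor of IP3 receptor turnover, fell by 1.46 at 24 h and UBE2G2, a ubiquitin-conjugating enzyme, by 1.33, while HERPUD2 was higher by 0.96.

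The 44 other entry and export genes had 5 higher and 3 lower at 90 min, 4 and 11 at 4 h, and 13 and 21 at 24 h (47.7% lower). SRPRB, a subunit of the signal recognition particle receptor, was lower at 24 h (-2.12 ± 0.16, adjusted p = 3.75e-07), and SRP72, a subunit of the particle, was too (-1.06 ± 0.17, adjusted p = 0.000248). SEC62, a translocation factor that also serves ER turnover, was higher (1.25 ± 0.08, adjusted p = 5.52e-08).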

How the data were processed

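RNA was measured on 12 Affymetrix arrays, 3 in each of 4 groups. The authors deposited 1 log2 value per probe set and array, and the submitters' processing notes name GCRMA and Affymetrix Expression Console, with no version given. GCRMA in general corrects background by probe sequence, normalizes by quantiles and summarises the probes of a set. These log2 values were used as deposited. Of 54675 probe sets, 41097 named a single gene. Each of the 19775 genes was read from its probe set of highest average level over 12 arrays, and 28 members had more than 1. Per the labels, a whole-transcript kit with random primers was used, while the probe set names are those of a 3′ design.

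A linear model of group means (limma 3.58.1, R 4.3.3, empirical Bayes with a mean-variance trend) gave the differences, with all 12 arrays in 1 fit, 8 residual and 3.97 prior degrees of freedom, and Benjamini-Hochberg adjustment over all genes of each of 5 comparisons. Errors of differences are standard errors (SE) of the fit and errors of levels are standard deviations (SD). The p-values refer to the spread among these samples, and the number of arrays limits the precision. On simulated data of 24 h against vehicle with 19775 genes, 89 of 100 genes with a 2-fold change were found again, as were 100 of 100 with a 4-fold change, 12 of 201 calls were unchanged genes, and a comparison without change gave 0 calls. The simulated noise was normal and independent between arrays, and few genes changed, while 36.7% of all genes were called at 24 h here. The simulation therefore checks the code and does not give the error rate of the calls reported.

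The members, the 5 other lists (130 genes), the markers and the motifs were chosen with earlier results of these data known. All measured members are named. In each other list up to 3 called genes with the largest difference at 24 h are named, and genes outside the list that hold a motif are named where called at 90 min. Same-numbered arrays of different groups had correlations of -0.13 to 0.37 in their deviations from the group means (18 pairs, 7 over 0.1), as had 5 of 36 differently numbered pairs. All 3 pairs of 90 min and vehicle were over 0.1 (0.128 to 0.229), while each other pair of groups had at least 1 under it. No label gives the numbers a meaning, so the block was kept as an alternative, and its counts stand beside the 90 min results. The alternatives were other settings of the fit, of the probe set, of the normalization and of the genes tested, and leaving out each array. No amino acid sequence is shown.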

Additional observations from a re-analysis of the deposited data

Results flagged for a closer look

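The difference from vehicle changed between times, by a direct limma test of one time against the next, in 7 members from 90 min to 4 h and in 21 members from 4 h to 24 h. Of all genes 10.6% and 23.5% changed in these comparisons. For 4 h against 90 min, 16.2% of members were lower and 2.7% higher. Among genes with a mean of at least 4 the shares were 14.7% and 6.42%. For 24 h against 4 h, 48.6% of members were lower and 8.11% higher, and of those genes 21.8% and 24.7%. In 5 folding genes the direction against vehicle turned: each was called higher at 4 h and lower at 24 h. The log2 difference of 24 h from 4 h was -1.12 for HSPA5, -0.85 for HSP90B1, -0.82 for PDIA6, -1.17 for CRELD2 and -0.75 for MANF. These genes were picked by their calls at 4 h and 24 h, so the negative sign of these differences was set by the choice. The share of all genes with both calls was not counted, so how unusual this turn is cannot be read here. With single arrays left out, 5.67% to 41.2% of all genes were higher at 4 h than in vehicle. With the mean of the probe sets, the 4 h call against vehicle ended for HSP90B1 and PDIA6, and that of MANF ended in 8 of 15 alternatives.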

How the results depend on the processing

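Of the calls against vehicle, 8 of 12 at 90 min, 7 of 14 at 4 h and 15 of 21 at 24 h held in every alternative, as did 3 of 7 for 4 h against 90 min and 18 of 21 for 24 h against 4 h. Under array weights, whose estimate stopped before it converged (weights of 0.0413 to 29.0 for 2 arrays of the 4 h group), the members higher and lower were 19 and 4 at 90 min (11 and 1 in the reported fit), 22 and 6 at 4 h (11 and 3), 9 higher at 24 h (5), 13 and 14 for 4 h against 90 min (1 and 6) and 7 higher for 24 h against 4 h (3). Of all genes, array weights called 31.4% higher and 16.8% lower at 90 min, and 56.9% and 24.6% at 4 h. At 24 h 57.9% were higher, and for 24 h against 4 h 21%. For 4 h against 90 min 36.4% were higher and 16.5% lower. Under array weights, signs turned at 4 h for ERN1 (0.16), OSTC (0.082), P4HB (0.12) and SEL1L (0.10), and for 4 h against 90 min for HYOU1 (0.18) and P4HB (0.18). With a gene's probe sets averaged, 2 members were lower at 90 min, 5 were lower at 4 h, 3 were higher at 24 h and 0 were higher for 4 h against 90 min, and SEL1L turned to -0.41 at 24 h and -0.094 for 24 h against 4 h. The shares of all genes for these counts were 5.57%, 16.1%, 17.3% and 3.02% in that order. With array medians subtracted 1 member was higher at 24 h, and quantile normalization gave 4 higher for 4 h against 90 min and a constant prior spread gave 2. The shares of all genes higher were 13.1%, 5.48% and 3.36% in that order. With only the 6 arrays of a comparison 3 were lower at 90 min and 8 were higher at 24 h, against 7.61% and 53.2% of all genes. With genes under an average level of 4 left out, a filter chosen after seeing the data, 0 were lower at 90 min, since DERL3 is then not tested, and 10 were lower for 4 h against 90 min. Of all genes that passed this filter, 14.2% and 19.5% were lower in these comparisons. With a replicate block, members higher and lower were 13 and 1 at 90 min, 12 and 3 at 4 h, 5 and 16 at 24 h, 1 and 9, and 3 and 18 in the later comparisons, and the 24 h call of EIF2AK3 ended (adjusted p = 0.0597). With that block 4.14%, 33.3% and 21.4% of all genes were higher at 90 min, 4 h and 24 h. The shares lower were 5.68%, 17.7% and 19.1%. In the later comparisons 3.55% and 13% of all genes were higher, and 7.57% and 10.9% lower. Leaving out each array gave 10 to 14 members higher and 1 lower at 90 min, 9 to 11 and 2 to 5 at 4 h, 2 to 8 and 14 to 17 at 24 h, 1 to 2 and 3 to 9 for 4 h against 90 min, and 3 to 4 and 18 to 19 for 24 h against 4 h. Of all genes, 2.78% to 5.38% were then higher and 3.19% to 7.83% lower at 90 min. The shares were 5.67% to 41.2% and 11.6% to 19.1% at 4 h, and 13% to 52% and 16.7% to 21.3% at 24 h. Members higher at 24 h were 2 without vehicle replicate 3, 3 without 24 h replicate 2 or 3, and 8 without 4 h replicate 2, an array that comparison does not use. The shares of all genes higher were 13.1%, 14.3%, 14.6% and 52% in these fits. Members lower at 4 h were 5 without 4 h replicate 3, and for 4 h against 90 min 3 were lower without 90 min replicate 1 and 2 were higher without 4 h replicate 2. The matching shares of all genes were 17.4% lower, 4.66% lower and 3.97% higher. The causes were not tested.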
